A study of Mus musculus with 36 samples.

Results

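Mesenchymal stem cells (MSCs) are fibroblast-like cells that adhere to plastic and can be driven towards bone, cartilage and fat. MSCs grown from femoral bone marrow (fBM-MSCs) were compared with MSCs grown from adipose tissue (A-MSCs) across all genes, with 3 RNA-seq libraries of each, which is 6 of the 11 libraries analysed here. The cells came from 8-week-old C57BL6/J mice carrying no transgene or treatment, and both tissues were taken from the same 3 mice, although no source used here ties a library to a mouse. Marrow cells were released by crushing the femur and adipose cells by collagenase, and both were expanded in MesenCult medium with MesenPure and a Rock inhibitor on collagen I and used within 3 passages. The adipose depot and the sex of the mice are not given in the sources used here. The groups are cultures, not sorted populations: in the study, cells were checked by flow cytometry for CD29, CD44, Sca-1 and CD106 and for the absence of CD31, CD34 and CD45. MSCs of vertebral bone marrow (vBM-MSCs, 2 libraries) and of lung (P-MSCs, 3 libraries) from the same series served as a second marrow against non-marrow pair. It shares no library with the first, but the study took all 4 tissues from the same mice, so the pairs are not independent in animals.

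In skeletal tissue, cells of the osteoblast lineage are specified by the factors RUNX2 and SP7 and lay down a collagen matrix that mineralizes through bone-specific phosphoproteins and phosphatases. Stromal cells of fat include progenitors of adipocytes, and visceral depots are covered by mesothelium, a keratin-bearing layer marked by WT1 and mesothelin. Contractile smooth muscle proteins, which myofibroblasts also make, are driven by serum response factor. Hox genes keep a record of position along the body and limb axes in cultured fibroblasts and MSCs.

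The RNA-seq libraries held 19569650, 31805844 and 37180657 expected counts in fBM-MSCs and 31767591, 39802027 and 37580463 in A-MSCs. Levels are given as TPM, a transcript abundance scaled for transcript length and library depth. Differences are log2 fold changes, fBM-MSCs minus A-MSCs, fitted by edgeR with standard errors (SE), and a gene was called at a Benjamini-Hochberg adjusted p under 0.05. Genome-wide, log2(TPM + 1) correlated across genes at 0.983 to 0.991 within fBM-MSCs, at 0.992 to 0.993 within A-MSCs and at 0.952 to 0.964 between them, as a description over genes that are not independent replicates. fBM-MSC replicate 3 lay farthest from the other fBM-MSC libraries and from A-MSCs, and counts without it are given beside several of the lists. Fewer cells of a type and less RNA per cell cannot be told apart in these bulk libraries.

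Of 24411 listed genes, 12509 passed the filter on low counts and were tested. fBM-MSCs and A-MSCs differed in 5115 of them (40.9%), of which 2573 were higher in fBM-MSCs (20.6% of those tested) and 2542 lower (20.3%). A difference of at least 3-fold was called for 1501 genes (12%), 834 of them higher (6.67%) and 667 lower (5.33%). An unadjusted p under 0.05 was found for 6159 genes (49.2%), and the median log2 fold change of all tested genes was 0.03. The p-values measure the spread between these cultures. The 12 genes with the largest fitted rise among those with at least 10 TPM were Ibsp, Dmp1, Sp7, Atp6v0d2, Bmp3, Wif1, Dlx5, Bglap, Fcer1g, Comp, Bglap2 and Sfrp4, most of which encode bone or cartilage matrix, osteoblast factors or secreted BMP and Wnt regulators. The 12 with the largest fall were Wt1, Emcn, Krt8, Upk3b, Krt18, Cck, Saa3, Ifi27l2a, Plac8, Flt1, Des and Slc1a6, which include mesothelial, keratin and endothelial genes.

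**Figure D1:**
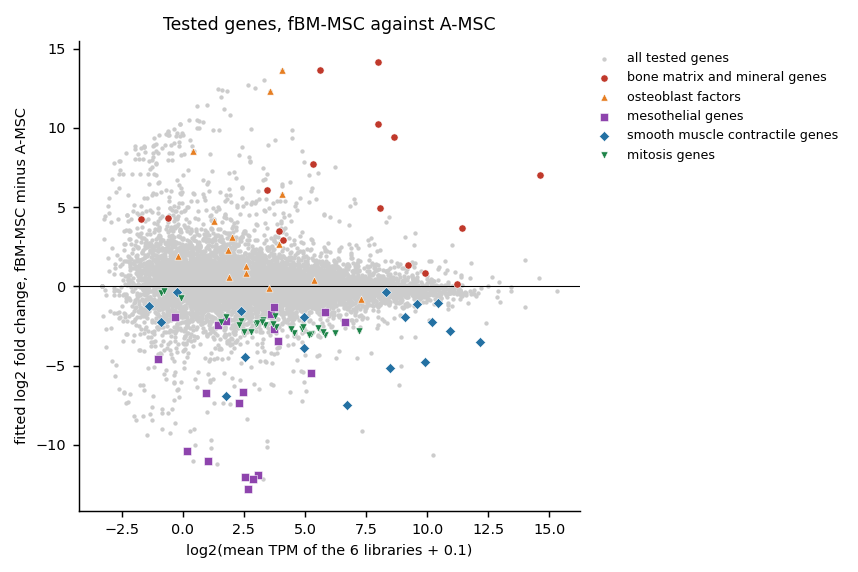
Each point is a tested gene, with log2(mean TPM over the 6 libraries + 0.1) on the x axis and the fitted log2 fold change, fBM-MSC minus A-MSC, on the y axis. Bone matrix genes reach the top of the plot, mesothelial genes the bottom, and mitosis genes form a band below 0. Fitted values beyond about 8 mostly belong to genes with no or few counts in the lower tissue and depend on the prior count of the fit.

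The bone matrix and mineral genes were, among lists with at least 10 tested members, the list with the highest share raised in fBM-MSCs. Of 22 listed, 16 were tested and 13 were higher, where 20.6% of all tested genes were, and 0 lower, with a median log2 fold change of 4.65 against 0.03 over all genes. Without fBM-MSC replicate 3, 12 members were called higher. Spp1, which encodes the phosphoprotein osteopontin, had 26353, 38360 and 84015 TPM in fBM-MSC replicates 1 to 3 and 384, 353 and 352 TPM in A-MSCs. Even the lowest fBM-MSC library was far above every A-MSC library, and the log2 fold change was 7.02 ± 0.66 (SE, adjusted p = 1.63e-05). Ibsp, bone sialoprotein, had 218, 286 and 1010 TPM in fBM-MSCs and 0.08, 0 and 0 TPM in A-MSCs, where it had 3 counts in all, a ratio of 23421 with a counting interval of 8014 to 113572. Dmp1, a matrix protein of osteocytes, had 40.4, 96.7 and 159 TPM in fBM-MSCs and 0.02, 0 and 0 TPM in A-MSCs. These genes neighbour each other on chromosome 5 of GRCm38, Dmp1 at chr5:104202617-104214102, Ibsp at chr5:104299287-104311472 and Spp1 at chr5:104435111-104441053, all on the plus strand. They belong to the SIBLING family of acidic matrix phosphoproteins.

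Osteocalcin, the late osteoblast hormone encoded by Bglap, followed the same order. Bglap had 155, 302 and 1065 TPM in fBM-MSCs and 0.26, 0.9 and 0 TPM in A-MSCs (log2 fold change 10.25 ± 1.43, SE, adjusted p = 0.000467). Its copy Bglap2 had 224, 490 and 1673 TPM in fBM-MSCs and 3.03, 0 and 0 in A-MSCs. Reads can be shared between these near-identical genes, so the split between them is uncertain. Alpl, the tissue-nonspecific alkaline phosphatase that releases phosphate for mineral, had 35.6, 27.6 and 173 TPM in fBM-MSCs and 0, 0.54 and 0.42 TPM in A-MSCs (7.73 ± 1.18, SE, adjusted p = 0.000754). In each of these 3 genes replicate 3 was the highest fBM-MSC library. The 3 tested members that were not called were Sparc, Col1a1 and Phex. Col1a1, the main collagen of bone and of most connective tissue, had 767, 875 and 2161 TPM in fBM-MSCs and 539, 718 and 775 in A-MSCs, a log2 fold change of 0.83 ± 0.32 (SE) with an adjusted p of 0.058. Sparc, osteonectin, had mean values of 2560 and 2202 TPM (0.15 ± 0.16, SE, adjusted p = 0.493).

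**Figure D2:**
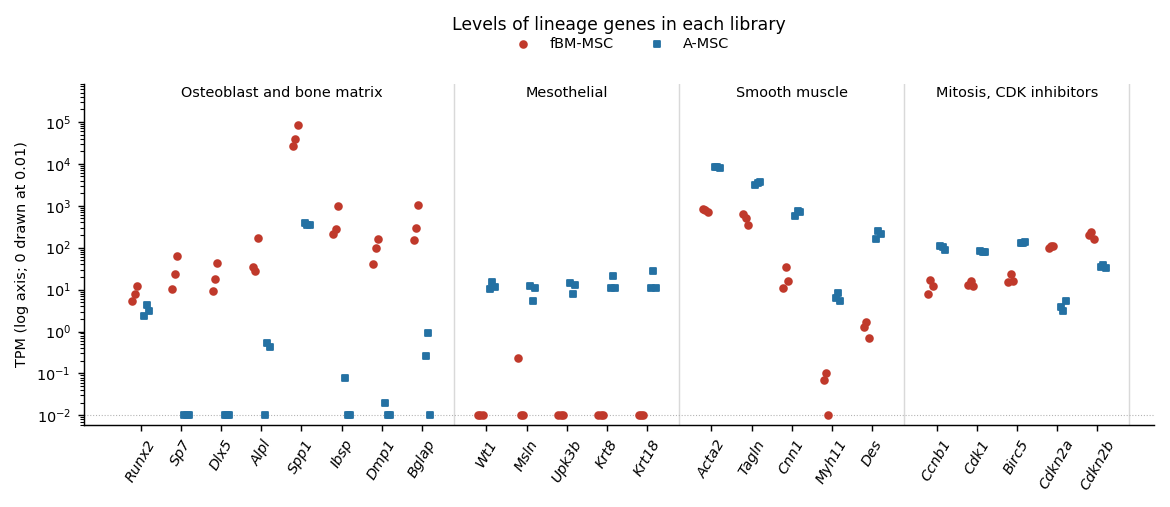
TPM on a log axis of 23 genes in each of the 3 fBM-MSC libraries (circles) and 3 A-MSC libraries (squares), with 0 drawn at 0.01. Runx2 differs by a few fold, Sp7 and Dlx5 are at 0 and Ibsp and Dmp1 at or near 0 in A-MSCs while Spp1 is at 352 to 384 TPM there, and the mesothelial genes are at or near 0 in fBM-MSCs.

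Of 15 tested osteoblast factors, which act upstream of this matrix, 10 were higher in fBM-MSCs and 1 lower, beside 20.6% and 20.3% of all tested genes. The median was 2.32, and 8 were higher without fBM-MSC replicate 3. Runx2, the factor that commits cells to the osteoblast lineage, was detected in both tissues, with 5.4, 7.89 and 12.5 TPM in fBM-MSCs and 2.4, 4.23 and 3.04 TPM in A-MSCs (1.28 ± 0.31, SE, adjusted p = 0.00643). Sp7, osterix, which acts after Runx2, had 10.1, 23.7 and 64.3 TPM in fBM-MSCs and 0 in every A-MSC library. It was at least 1839-fold higher against a floor of 3 counts over the group. Dlx5, a homeobox factor of the same lineage, had 9.09, 17.8 and 44.3 TPM in fBM-MSCs and 0 in A-MSCs, at least 742-fold higher. Atf4, the stress-response factor that osteoblasts also use, was the member called lower (-0.79 ± 0.22, SE, adjusted p = 0.0155). That call was lost without fBM-MSC replicate 2 (adjusted p = 0.063). The 4 members not called were Msx1, Twist1, Cbfb and Sp3.

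Chondrocyte genes were partly higher in fBM-MSCs, at lower levels and with more spread. Of 23 listed, 13 were tested, 8 higher and 1 lower, beside 20.6% and 20.3% of all tested genes. The count of higher members was 6 without fBM-MSC replicate 3 and 5 without A-MSC replicate 3. The lower count ran from 0 to 2 when 1 library was left out. Comp, a matrix protein of cartilage and tendon, had 36.8, 7.65 and 88.1 TPM in fBM-MSCs and 0, 0 and 0.12 in A-MSCs (9.89 ± 1.43, SE, adjusted p = 0.000285). Fmod, fibromodulin, had 156, 52.8 and 460 TPM in fBM-MSCs and 4.95, 4.75 and 9.4 in A-MSCs. Col2a1, the collagen that defines cartilage, had only 3.4, 0.43 and 4.41 TPM in fBM-MSCs and 0 in A-MSCs, and its call (adjusted p = 0.0405) was lost without any 1 of the A-MSC libraries or without fBM-MSC replicate 1 or 3, with adjusted p values of 0.067 to 0.09, and also with the replicate number as a block (0.0748) and by limma on log2(TPM + 1) (0.135). Acan, aggrecan, was below the filter, at 0.07 TPM or less in each of the 6 libraries. Sox9, the master factor of cartilage, had 9.45, 7.69 and 6.44 TPM in fBM-MSCs and 8.12, 9.49 and 10.8 in A-MSCs, which overlap (-0.34 ± 0.23, SE, adjusted p = 0.25).

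The pooled ATAC-seq peak lists, 1 per tissue, were used to describe open chromatin at these genes. ATAC-seq cuts and tags DNA where it is not covered by nucleosomes, and a region was taken as open at a −log10 q of at least 7 for its best summit. There were 56769 open regions in fBM-MSCs and 59873 in A-MSCs, on chromosomes 1 to 19, and no replicate values, so all statements on regions are descriptions and their exact binomial 95% intervals cover counting error only. Of the fBM-MSC regions, 69.7% (69.4 to 70.1) overlapped an A-MSC region by at least 1 base, which left 17175 open in fBM-MSCs and not in A-MSCs. Of the A-MSC regions, 65.3% (64.9 to 65.7) overlapped an fBM-MSC region, which left 20773. Many of these regions are a matter of degree, since 37.9% of the first set and 49.5% of the second were listed in the other tissue below the threshold. Of the regions open in fBM-MSCs and not in A-MSCs, 29.0% were also open in vBM-MSCs and 20.1% in P-MSCs, while of the regions open in A-MSCs and not in fBM-MSCs 29.3% were open in vBM-MSCs and 47.3% in P-MSCs.

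The strongest regions open in fBM-MSCs and not in A-MSCs near the named genes are shown first, because they lie at genes with no or almost no RNA in A-MSCs. They were the regions of highest fold enrichment at their summit within 50 kb of the start of such a gene, and the sequences are the plus strand of GRCm38 within 100 bases of the summit, stopping at the nearest exon, with motif letters of either strand in capitals. The letters searched for RUNX factors were TGTGGT and also TGCGGT. For GATA factors they were AGATAA and also AGATAG, with TGATAA and also TGATAG. For AP-1 they were TGACTCA and its complement TGAGTCA, and for TEAD factors ACATTCC and also GCATTCC. The summit at Atp6v0d2, a proton pump subunit of osteoclasts, lay 44 bases before the start of the gene with a fold enrichment of 29.4. The summit within Alpl lay in an intron, 17515 bases after the nearest start, with a fold enrichment of 15.5. The summit at Dlx5 lay 61 bases before the start, with a fold enrichment of 14. All 3 regions were also open in vBM-MSCs and none was open in P-MSCs.
Atp6v0d2, chr4:19922567-19922710: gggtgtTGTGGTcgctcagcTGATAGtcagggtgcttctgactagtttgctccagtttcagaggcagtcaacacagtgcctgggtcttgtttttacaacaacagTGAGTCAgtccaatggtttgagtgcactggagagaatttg
Alpl, chr4:137748860-137749060: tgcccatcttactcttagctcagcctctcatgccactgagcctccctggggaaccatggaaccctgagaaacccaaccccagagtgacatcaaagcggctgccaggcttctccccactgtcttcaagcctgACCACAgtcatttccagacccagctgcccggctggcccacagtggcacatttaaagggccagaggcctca
Dlx5, chr6:6882069-6882229: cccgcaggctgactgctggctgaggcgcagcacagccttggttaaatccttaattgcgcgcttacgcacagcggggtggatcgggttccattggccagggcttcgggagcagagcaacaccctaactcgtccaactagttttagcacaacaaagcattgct

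The stretch at Atp6v0d2 held a RUNX, a GATA and an AP-1 match, the stretch in Alpl a RUNX match, and the stretch at Dlx5 none of these letters. On the scale of whole regions, RUNX letters were present within 100 bases of the summit in 34% of the 17175 regions open in fBM-MSCs and not in A-MSCs, in 23.8% of the regions open in both and in 20.9% of the regions open in A-MSCs and not in fBM-MSCs. The share over all fBM-MSC regions was 26.9%. A match is a description of letters in a window and not a site of binding.

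The promoters of the bone matrix genes were searched for the same RUNX letters, as a description with no test. In the RefSeq windows of 250 bases before the start, 5 of the 12 tested members with a sequence held a match (41.7%) against 1948 of 9515 tested genes (20.5%). Of the 10 osteoblast factors with a sequence, 1 held a match (10%). The 5 bone matrix genes with a match were Spp1, Dmp1, Bglap, Phospho1 and Enpp1, all called higher in fBM-MSCs. The matches of the 3 that were named by rule are printed on the strand of the gene with the RUNX letters in capitals, from 30 bases before to 30 bases after the match. On that strand each match reads as the complement of TGTGGT. It begins 128 bases before the start in Spp1, 164 in Dmp1 and 132 in Bglap.
Spp1 promoter, chr5:104434953-104435018: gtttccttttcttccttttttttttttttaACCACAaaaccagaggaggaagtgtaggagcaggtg
Dmp1 promoter, chr5:104202423-104202488: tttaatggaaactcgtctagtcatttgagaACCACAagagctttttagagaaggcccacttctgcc
Bglap promoter, chr3:88384563-88384628, minus strand: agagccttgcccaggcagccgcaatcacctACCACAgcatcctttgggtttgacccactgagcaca

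Promoters were taken as 1 kb on each side of a start. Of 15 tested bone matrix genes on chromosomes 1 to 19, 7 had a promoter open in both tissues, 5 in fBM-MSCs only, 1 in A-MSCs only and 2 in neither, where 1.86% of all tested genes were open in fBM-MSCs only. The 5 were Spp1, Ibsp, Dmp1, Bglap2 and Mgp, and the 1 was Omd. The promoters of Bglap and Alpl, and that of the osteoblast factor Sp7, held an open region in neither list. Spp1 had 7 regions open in fBM-MSCs and not in A-MSCs within 50 kb of its start and 1 of the opposite kind, where the means over all tested genes were 0.969 and 1.67.

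Mesothelial genes had the lowest median of the lists with at least 10 tested members. Of 20 tested, 18 were lower in fBM-MSCs, where 20.3% of all tested genes were, and 0 higher, with a median of -5.03, and 19 were lower without fBM-MSC replicate 3. Wt1, the zinc finger factor of mesothelium, was at 0 in all 3 fBM-MSC libraries and had 10.6, 14.9 and 11.7 TPM in A-MSCs, at least 785-fold lower in fBM-MSCs. Upk3b, a uroplakin of mesothelium, was likewise at 0 in fBM-MSCs and had 14, 7.76 and 12.6 TPM in A-MSCs. Krt8 and Krt18, the keratin pair of simple epithelia and mesothelium, were at 0 in every fBM-MSC library. Krt8 had 11.1, 21 and 11.2 TPM in A-MSCs and Krt18 had 11.2, 27 and 11.1 TPM. Msln, mesothelin, had 0.24, 0 and 0 TPM in fBM-MSCs and 12.2, 5.37 and 11.1 TPM in A-MSCs (-7.38 ± 1.04, SE, adjusted p = 0.000239). The groups did not overlap for 19 of the 20 members, where 52.1% of all tested genes did not overlap. The summed level of the 24 listed markers was 63.2 to 118 TPM in fBM-MSCs and 472 to 552 TPM in A-MSCs, and 9 of the 24 were at 0 in every fBM-MSC library. How many of the cells carried these markers was not measured, and the part of such cells in other differences was not tested. Of 13 markers of other epithelia, 7 were at 0 in all A-MSC libraries, 2 were tested and 1, Krt14, was lower in fBM-MSCs, where it was at 0 against 4.35, 2.96 and 5.4 TPM in A-MSCs.

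GATA factors 4 and 6, which mesothelial and visceral cells use, belonged to the same side. Gata4 had 0.05, 0 and 0.05 TPM in fBM-MSCs and 0.16, 1.43 and 0.67 TPM in A-MSCs (-4.61 ± 1.13, SE, adjusted p = 0.00722). Gata6 had 1.27, 1.29 and 0.04 TPM in fBM-MSCs and 3.94, 4.51 and 4.78 in A-MSCs (-2.45 ± 0.74, SE, adjusted p = 0.0211), and its call was lost without A-MSC replicate 3 (0.0514) and in a fit of the 6 compared libraries alone (0.0541). It shares exonic bases with Gata6os, and reads without strand cannot be told apart. Gata2, better known from blood and endothelium, was the highest of the 3 and had 4.77, 5.01 and 2.42 TPM against 14.8, 20.6 and 21.6 TPM. Of 10 tested RUNX and GATA factors, 6 were lower in fBM-MSCs, where 20.3% of all tested genes were, and the 2 higher, a share at the background, were Runx2 and Runx3. Runx1, the blood stem cell factor, had 4, 5.59 and 5.07 TPM in fBM-MSCs and 6.62, 7.91 and 9.22 in A-MSCs (-0.78 ± 0.16, SE, adjusted p = 0.00241). Runx3 had 1.43, 3.34 and 7.67 TPM in fBM-MSCs and 0, 0 and 0.03 TPM in A-MSCs, where it had 3 counts.

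Motif letters were counted over all open regions of the genome, not only those near these genes. Of the regions open in A-MSCs and not in fBM-MSCs, 35.9% held GATA letters near the summit, against 19.2% of those open in fBM-MSCs and not in A-MSCs and 18.5% of those open in both. TEAD letters were in 17.3%, 8.72% and 11.1%, and AP-1 letters in 22.5%, 32.9% and 29.8% of the same sets. Homeobox letters, TAATTA, were in 3.47%, 4.72% and 2.44%. The mean GC content of the windows was 47.6% for the A-MSC set and 47.5% for the fBM-MSC set, so that these shares differ at a like base composition, while it was 53.4% for regions open in both. Wt1 had 10 regions open in A-MSCs and not in fBM-MSCs within 50 kb and none of the opposite kind. The strongest lay 14245 bases before its start in an intron of the antisense gene Wt1os, with a fold enrichment of 26.1, and was listed below the threshold in fBM-MSCs, and the second, at 25, lay 16 bases before the start between exons and is not printed. The third of the A-MSC set, at 23.5, lay 45512 bases before the start of Cck, the gene of the peptide hormone cholecystokinin. The A-MSC windows are shown as for fBM-MSCs, the first without any of the letters and the second with 2 GATA matches.
Wt1, chr2:105112184-105112384: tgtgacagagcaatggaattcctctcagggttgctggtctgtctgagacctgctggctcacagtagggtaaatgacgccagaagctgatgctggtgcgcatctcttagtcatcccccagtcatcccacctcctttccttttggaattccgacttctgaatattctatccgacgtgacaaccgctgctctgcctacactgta
Cck, chr9:121541106-121541306: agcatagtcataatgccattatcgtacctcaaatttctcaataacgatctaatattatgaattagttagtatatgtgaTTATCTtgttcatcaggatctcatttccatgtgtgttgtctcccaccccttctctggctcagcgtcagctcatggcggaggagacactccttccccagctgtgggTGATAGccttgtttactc

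**Figure D3:**
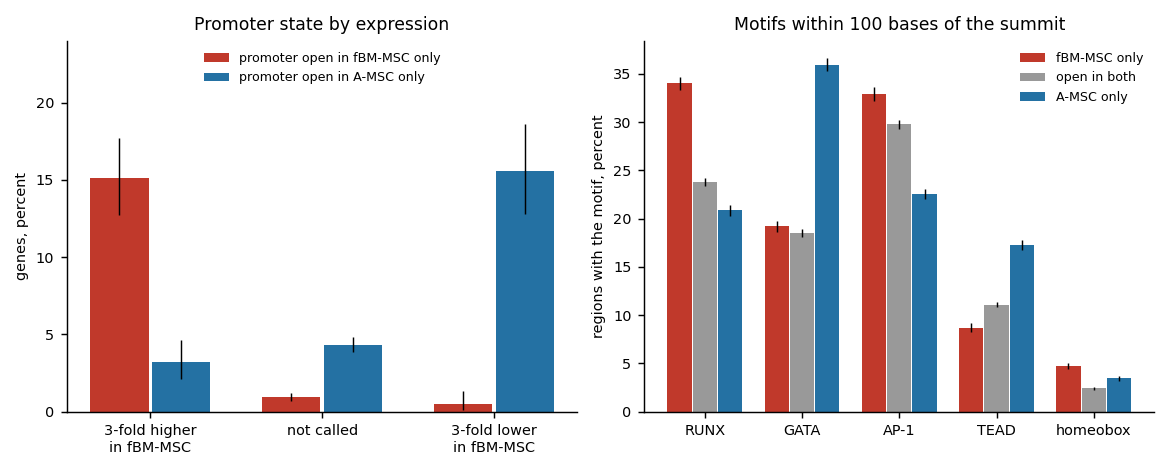
Left, percent of genes whose promoter was open in fBM-MSCs only or in A-MSCs only, for genes at least 3-fold higher, not called and at least 3-fold lower in fBM-MSCs. Right, percent of regions with each motif within 100 bases of the summit. Bars carry exact binomial 95% intervals. RUNX is most frequent in the fBM-MSC set (34%) and GATA in the A-MSC set (35.9%).

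Cck itself was among the 12 genes with the largest fall. It had 2.25, 0.44 and 2.16 TPM in fBM-MSCs and 2197, 2694 and 2417 TPM in A-MSCs (-10.67 ± 0.93, SE, adjusted p = 9.59e-06). Plac8 had 0, 1.72 and 0 TPM in fBM-MSCs and 182, 411 and 363 TPM in A-MSCs. Slc1a6, a glutamate transporter known from Purkinje cells, had 0.4, 0.2 and 0.62 TPM against 52.2, 61.2 and 63.5 TPM, with 5 regions open in A-MSCs and not in fBM-MSCs within 50 kb and none of the opposite kind. The promoters of Cck, Plac8 and Slc1a6 were open in A-MSCs only.

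Most smooth muscle contractile genes were lower in fBM-MSCs. Of 18 tested, 15 were lower, where 20.3% of all tested genes were, and 0 higher, with a median of -2.25, and leaving out any 1 fBM-MSC or A-MSC library left 15 or 16. Acta2, smooth muscle actin, had 821, 810 and 702 TPM in fBM-MSCs and 8429, 8453 and 8060 TPM in A-MSCs (-3.49 ± 0.16, SE, adjusted p = 2.95e-07). Cnn1, calponin, had 11, 34 and 15.9 TPM in fBM-MSCs and 579, 761 and 717 TPM in A-MSCs. Myh11, the myosin heavy chain that marks mature smooth muscle, had 0.07, 0.1 and 0.01 TPM against 6.24, 8.38 and 5.28 TPM. Des, the intermediate filament desmin, had 1.28, 1.68 and 0.7 TPM against 163, 245 and 216 TPM (-7.51 ± 0.33, SE, adjusted p = 2.95e-07). In all 4 genes the groups did not overlap, although Cnn1 and Myh11 varied several-fold among the fBM-MSC libraries. The 3 members not called were Cald1, Itga8 and Myocd, the last of which, a coactivator of serum response factor, was at 0.173 and 0.39 TPM on average. The actins Acta1, Acta2 and Actg2 share long stretches, so their separate values are uncertain. Of 3 tested skeletal muscle markers, 2 were lower in fBM-MSCs, namely Des and Acta1, while the defining Myod1, Myf5, Pax7, Myog and Actn2 were at 0 in all 6 libraries. The Acta2 promoter was open in both tissues, and within 50 kb of its start there were 7 regions open in A-MSCs and not in fBM-MSCs and none of the opposite kind. CArG boxes, the serum response factor motif, were in 1.59% of the regions open in A-MSCs and not in fBM-MSCs, in 0.734% of the fBM-MSC set and in 1.12% of those open in both.

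Most mitosis and DNA replication genes were lower in fBM-MSCs. Of 28 mitosis genes, all tested, 25 were lower, where 20.3% of all tested genes were, and 0 higher, with a median of -2.50, and the count was 25 without any 1 of the fBM-MSC or A-MSC libraries. Ccnb1, the cyclin of mitotic entry, had 7.68, 17.4 and 12 TPM in fBM-MSCs and 111, 104 and 87.9 TPM in A-MSCs (-3.10 ± 0.22, SE, adjusted p = 2.59e-06). Ccna2 and Cenpa, a cyclin and a centromere histone, fell by 2.99 and 3.08 on the log2 scale. Mki67, the gene of the proliferation antigen Ki-67, did not follow: it had 0.39, 0.35 and 0.6 TPM in fBM-MSCs and 0.49, 0.5 and 0.57 TPM in A-MSCs (-0.28 ± 0.32, SE, adjusted p = 0.509). Cenpe and Cenpf were the other 2 members not called, and all 3 were at 1.05 TPM or less on average in both tissues. The promoters of all 28 genes were open in both tissues. Of the 24 with a promoter sequence, 83.3% held CCAAT letters and 37.5% TTTGAA letters in the 250 bases before the start, in either strand, against 40.7% and 12.4% of all tested genes.

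DNA replication genes moved the same way by less. All 35 were tested, 31 were lower, where 20.3% of all tested genes were, and 0 higher, and the median was -1.37, with 27 to 30 lower when any 1 of the 6 libraries was left out. The licensing factor Cdc6 had 0.58, 0.41 and 0.71 TPM in fBM-MSCs and 2.64, 4.32 and 4.67 TPM in A-MSCs (-2.85 ± 0.29, SE, adjusted p = 2.88e-05). The 4 not called were Cdt1, Gins3, Lig1 and Ung. Of the brakes on the cycle, the INK4 locus was on the opposite side. Cdkn2a, which encodes p16 and ARF, had 97.2, 111 and 109 TPM in fBM-MSCs and 3.92, 3.14 and 5.22 TPM in A-MSCs (4.54 ± 0.25, SE, adjusted p = 5.85e-07). Its neighbour Cdkn2b, p15, had 202, 242 and 158 TPM against 34.8, 39.1 and 33.7 TPM. The fBM-MSC libraries were all above the A-MSC libraries for both. Cdkn1a, p21, had a mean of 429 TPM in fBM-MSCs and 379 TPM in A-MSCs (0.11 ± 0.10, SE, adjusted p = 0.425), and Trp53 a mean of 120 and 123 TPM (adjusted p = 0.442). Gadd45a, a stress-induced p53 target, was higher by 2.19 ± 0.24 (SE) on the log2 scale. Of the 16 CDK inhibitors and p53 targets, 7 were higher and 2 lower, beside 20.6% and 20.3% of all tested genes. The 2 lower were Bax and the brake Cdkn1b, p27, which had 0.92, 1.56 and 1.78 TPM against 3.43, 3 and 2.59 TPM (-1.14 ± 0.34, SE, adjusted p = 0.0181). That call was lost without A-MSC replicate 1 (0.0532) or fBM-MSC replicate 1 (0.0558), which left 1 lower member, and without A-MSC replicate 3 there were 3. Without fBM-MSC replicate 3 the higher count was 5.

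**Figure D4:**
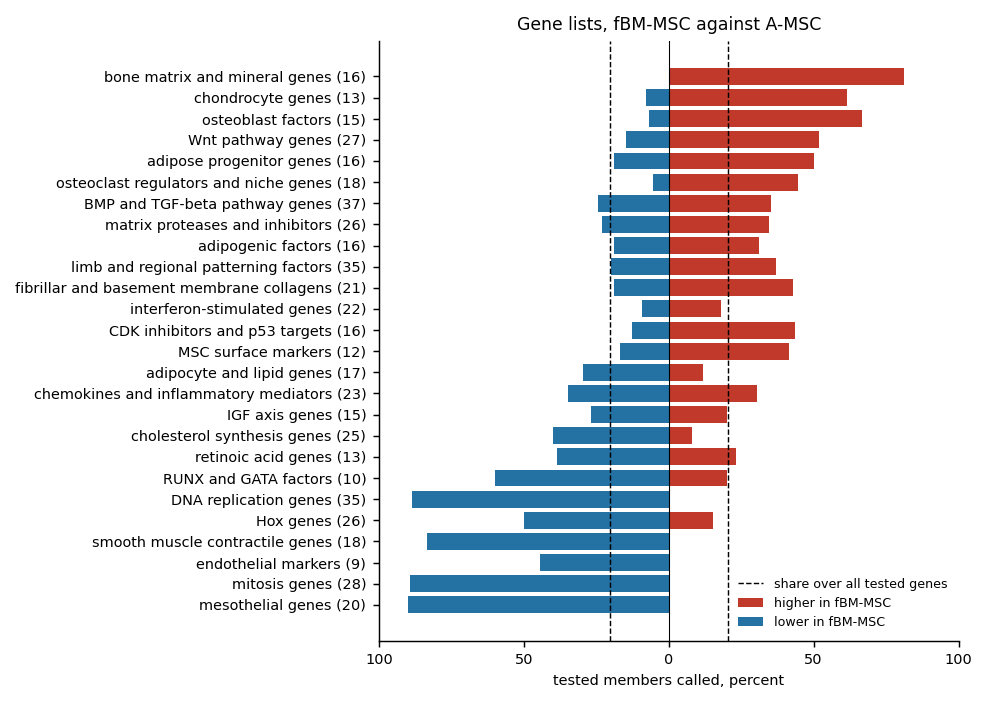
Percent of the tested members (their number in parentheses) of each gene list called higher (right) or lower (left) in fBM-MSCs, sorted by the median log2 fold change. Dashed lines mark the shares over all tested genes, 20.6% and 20.3%, and the lists with fewer than 9 tested members are left out.

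Adipogenic genes showed no common direction. Of 16 tested adipogenic factors, 5 were higher in fBM-MSCs and 3 lower, 50% called against 40.9% of all tested genes, with a median of 0.45, and of the lower ones 1 was left without A-MSC replicate 2 or 3. Of 17 tested adipocyte and lipid genes 2 were higher and 5 lower, with a median of 0.05, and the 41.2% called is near the share of all tested genes. The higher count was 1 without A-MSC replicate 1 or 2 or fBM-MSC replicate 3. Pparg, the master factor of fat cells, had 4.67, 5.5 and 12.7 TPM in fBM-MSCs and 5.94, 3.72 and 5.69 TPM in A-MSCs, which overlap (0.55 ± 0.38, SE, adjusted p = 0.27). Cebpa had 2.13, 3.38 and 4.28 TPM in fBM-MSCs and 1.31, 0.89 and 0.74 TPM in A-MSCs (1.67 ± 0.53, SE, adjusted p = 0.0254), and its call was lost without A-MSC replicate 2 or 3 and without fBM-MSC replicate 2 or 3 (0.0578 to 0.0817). Lpl, the lipase that admits fatty acids from lipoproteins, was lower in fBM-MSCs, at 0.75, 0.6 and 2.97 TPM against 15.8, 14.7 and 20.4 TPM. Fabp4, the fatty acid carrier of fat cells, had 31.1, 27.4 and 64 TPM against 118, 42.4 and 140 TPM, which overlap, and its adjusted p of 0.0369 rose to between 0.0998 and 0.131 without A-MSC replicate 1 or 3 or fBM-MSC replicate 1 or 2, and was 0.0578 in a fit of the 6 libraries alone and 0.0537 and 0.0577 with limma. Adipoq, adiponectin, was at 1.82, 0 and 0.27 TPM and at 2.69, 0 and 14.6 TPM. Plin2, which coats small lipid droplets of many cells, was higher, with 269, 319 and 272 TPM in fBM-MSCs and 157, 159 and 154 TPM in A-MSCs. Lep, Cidea and Ucp1 were at 0 in all 6 libraries.

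Of 16 tested genes of adipose progenitors, 8 were higher in fBM-MSCs and 3 lower, beside 20.6% and 20.3% of all tested genes, so that the lower count is near the background. The lower count was 5 without fBM-MSC replicate 1 and 2 without A-MSC replicate 1 or fBM-MSC replicate 3. Tbx15, a limb and fat patterning factor, had 16.6, 13.5 and 15.3 TPM in fBM-MSCs and 0.25, 0.69 and 0.16 TPM in A-MSCs (5.27 ± 0.47, SE, adjusted p = 1.08e-05). Pdgfra, the receptor used to sort fat progenitors, had 0.27, 0.76 and 0.75 TPM in fBM-MSCs and 7.93, 6.37 and 7.72 TPM in A-MSCs. The summed level of the 18 listed genes was 1027 to 1147 TPM in fBM-MSCs and 1684 to 1817 TPM in A-MSCs, without overlap. That order rests on 1 member, F3, tissue factor, which had 37.1, 34.4 and 21.4 TPM against 889, 1005 and 931 TPM. The gap in F3 alone is larger than the gap between the sums, so the sum gives no direction for the list. Outside that list, Tcf21, a factor of visceral fat stroma, was at 0 in fBM-MSCs and at 4.2, 4.85 and 3.82 TPM in A-MSCs.

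Of 26 tested Hox genes, 4 were higher in fBM-MSCs and 13 lower, so that the higher share is under the 20.6% of all tested genes and the lower share over the 20.3%. The 4 higher were Hoxa9, Hoxa10, Hoxc10 and Hoxc13, of which 2 were called without A-MSC replicate 1 or 2 or fBM-MSC replicate 1 or 2. Without A-MSC replicate 2 the lower count was 9. Hoxa10 had 19.1, 21.2 and 28.6 TPM in fBM-MSCs and 0.7, 2.1 and 6.29 TPM in A-MSCs (2.84 ± 0.75, SE, adjusted p = 0.0103). Hoxc10 had 19.3, 19.4 and 19.6 TPM in fBM-MSCs and 0.69, 0.93 and 1.84 in A-MSCs. The other 2 calls were closer to the threshold, Hoxc13 at 0.0446 and Hoxa9 at 0.0454, and the call of Hoxa9 was lost without any 1 of the 6 libraries (0.0591 to 0.123). The 13 lower genes had paralogue numbers from 1 to 8 in the A, B and C clusters, among them Hoxa2, Hoxb5 and Hoxb6. Hoxb6 had 1.67, 0.13 and 0.11 TPM in fBM-MSCs and 5.71, 9.49 and 7.96 TPM in A-MSCs (-3.89 ± 0.73, SE, adjusted p = 0.00149). None of the 3 tested Hoxd genes was called.

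**Figure D5:**
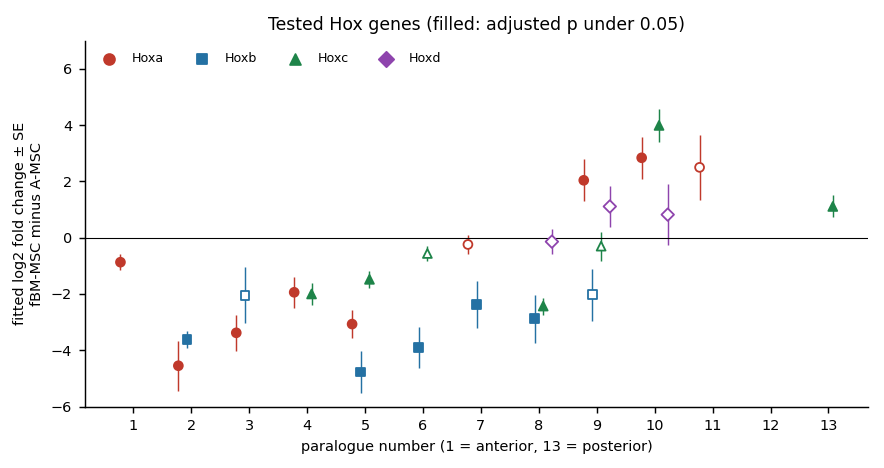
Fitted log2 fold change (fBM-MSC minus A-MSC, bars SE) of the 26 tested Hox genes by paralogue number, coloured by cluster, filled where called. All called genes with numbers up to 8 lie below 0, and the 4 called genes with numbers from 9 lie above it.

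Of 35 tested limb and regional patterning factors, 13 were higher in fBM-MSCs and 7 lower, where 20.6% and 20.3% of all tested genes were, so that the lower count is at the background share. Pitx1, which gives the hindlimb its identity, had 3.46, 3 and 6.5 TPM in fBM-MSCs and 0.02, 0 and 0.05 TPM in A-MSCs (7.28 ± 1.22, SE, adjusted p = 0.000731). Tbx5, a forelimb and heart factor, had 1.31, 0.21 and 0.64 TPM in fBM-MSCs and 0 in A-MSCs, at least 55.6-fold higher against the floor. Isl1, a factor of the early hindlimb field and heart, had 1.49, 3.05 and 0.42 TPM in fBM-MSCs and 0 in A-MSCs. Alx1 was the member that fell most, with 0, 0 and 0.17 TPM in fBM-MSCs and 4.77, 3.52 and 4.08 in A-MSCs.

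Signals that act on bone and blood were compared by role. Of 37 tested BMP and TGF-beta pathway genes, 13 were higher and 9 lower in fBM-MSCs, beside 20.6% and 20.3% of all tested genes, so that the lower count is near the background. Bmp3, a BMP of bone that lacks osteogenic action, had 5.27, 7.04 and 24.8 TPM in fBM-MSCs and 0 in A-MSCs. Gdf6, a joint-forming ligand, went the other way, with 0.31, 0.79 and 1.18 TPM against 15.2, 20.6 and 24.2 TPM (-4.75 ± 0.57, SE, adjusted p = 8.17e-05). Among 27 tested Wnt pathway genes, 14 were higher and 4 lower, the latter a share under that of all tested genes, with a median of 1.94. The secreted Wnt inhibitors were not alike: Wif1 had 5.78, 7.1 and 32.9 TPM in fBM-MSCs and 0 in A-MSCs, Sfrp4 had 15.8, 33.6 and 82.7 TPM against 0, 0.17 and 0 TPM, and Sfrp1 had 0.78 to 1.85 TPM against 11.5, 20.1 and 20.2 TPM.

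Of 18 tested osteoclast regulators and blood niche genes, 8 were higher in fBM-MSCs and 1 lower, beside 20.6% and 20.3% of all tested genes. The 50% called is near the 40.9% of all tested genes, and the lower share is under its background. The count of higher members was 5 without A-MSC replicate 2 and 10 without fBM-MSC replicate 3. Leaving out 1 of the 6 libraries gave 1 or 2 lower members. Il34, a second ligand of the CSF1 receptor, had 52.6, 52.2 and 36.3 TPM in fBM-MSCs and 1.2, 1.05 and 1.62 TPM in A-MSCs (5.10 ± 0.28, SE, adjusted p = 5.85e-07). Csf1, the first ligand, had 384, 491 and 315 TPM against 334, 357 and 348 TPM, which overlap. Its mean TPM was higher in fBM-MSCs while the fold change fitted on counts was -0.14 ± 0.15 (SE, adjusted p = 0.5), so no direction is given. Tnfsf11, RANKL, was at 0, 0.34 and 1.61 TPM in fBM-MSCs and at 0, 0 and 0.27 TPM in A-MSCs. Its decoy receptor Tnfrsf11b, osteoprotegerin, had 127, 97.5 and 78.4 TPM against 70.4, 58.9 and 59.5 TPM (adjusted p = 0.0214), a call that was lost without A-MSC replicate 2 or 3 or fBM-MSC replicate 1 (0.0657 to 0.0821). Cxcl12, the chemokine that holds blood stem cells in the marrow, had 178, 211 and 337 TPM in fBM-MSCs and 247, 286 and 197 TPM in A-MSCs, which overlap (-0.08 ± 0.21, SE, adjusted p = 0.786). Kitl, stem cell factor, had 24.8, 13.5 and 6.66 TPM against 10.5, 9.23 and 7.87 TPM (adjusted p = 0.171). Lepr, the receptor that marks perivascular marrow stroma in vivo, was below the filter, at 0.78 TPM or less in the 6 libraries.

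Matrix, growth factor and inflammatory genes were called at shares to be read against the 40.9% of all tested genes. Of 26 tested proteases and inhibitors, 9 were higher and 6 lower. Mmp13, the collagenase of bone and growth plate, had 39.1, 42.9 and 139 TPM in fBM-MSCs and 1.08, 1.08 and 1.05 TPM in A-MSCs (6.04 ± 0.74, SE, adjusted p = 9.5e-05), and Serpine2 had 441, 512 and 1017 TPM against 25.1, 22.8 and 42.9 TPM. Of 21 tested collagens, 9 were higher and 4 lower, the lower count being 1 to 3 without any 1 of the 6 libraries. Of 15 tested IGF axis genes, 3 were higher and 4 lower, 46.7% called and so near that background, and the lower count was 1 without fBM-MSC replicate 2. Igfbp7, the most abundant of them, had 1492, 1840 and 1899 TPM in fBM-MSCs and 520, 630 and 508 TPM in A-MSCs. Of 13 tested retinoic acid genes, 3 were higher and 5 lower. Aldh1a3, an enzyme that makes retinoic acid, had 0.98, 0.78 and 0.4 TPM in fBM-MSCs and 73.5, 49.6 and 70.6 TPM in A-MSCs (-6.62 ± 0.34, SE, adjusted p = 4.49e-07). Crabp2, which carries retinoic acid to its receptor, had 179, 91.2 and 9.41 TPM in fBM-MSCs and 0.42, 0.17 and 1.23 TPM in A-MSCs, replicate 3 being the lowest fBM-MSC library.

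Of 23 tested chemokines and inflammatory mediators, 7 were higher and 8 lower, 65.2% called against 40.9% of all tested genes. The higher count was 4 without fBM-MSC replicate 1 and 9 without fBM-MSC replicate 3. Il6 had 10.4, 6.72 and 3.83 TPM in fBM-MSCs and 165, 136 and 136 TPM in A-MSCs (-4.50 ± 0.33, SE, adjusted p = 2.94e-06). Il1rn, the interleukin 1 receptor antagonist, had 5.46, 2.75 and 12.8 TPM against 0.06, 0.12 and 0.1 TPM. Il33 was called higher but rested on replicate 1, with 185, 1.18 and 0.46 TPM against 0.72, 0.11 and 0 TPM, and its adjusted p was 0.494 without that library and 0.0599 and 0.116 with limma. Saa3, an acute phase protein, was at 0 in fBM-MSCs and at 12.2, 13.5 and 38.5 TPM in A-MSCs. Of 22 tested interferon-stimulated genes, 4 were higher and 2 lower, 27.3% called against 40.9% of all tested genes, and 1 was lower without A-MSC replicate 2 or 3 or fBM-MSC replicate 2 or 3. Of 25 cholesterol synthesis genes, 2 were higher and 10 lower, beside 20.6% and 20.3% of all tested genes, with a median of -0.31. The 48% called is near the 40.9% of all tested genes, and the lower count was 6 without A-MSC replicate 3.

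The labels of both groups were checked against surface genes and markers of other cells. Itgb1 (CD29), Cd44, Ly6a (Sca-1) and Vcam1 (CD106) had mean levels of 851, 440, 351 and 38.8 TPM in fBM-MSCs and of 489, 385, 126 and 42.6 TPM in A-MSCs. Ptprc (CD45) was at 0.08 TPM or less in each library and Pecam1 (CD31) at 0.03 TPM or less in fBM-MSCs and 3.84, 0.34 and 0.28 TPM in A-MSCs. Cd34, a protein used as a negative mark of these cells, had RNA at 79.2, 72.7 and 10.2 TPM in fBM-MSCs and 1.18, 1.02 and 0.91 TPM in A-MSCs (5.60 ± 0.71, SE, adjusted p = 0.000117). Of 12 tested MSC surface genes, 5 were higher and 2 lower, 58.3% called against 40.9% of all tested genes, with the lower share under the background of 20.3%. Cd9, a tetraspanin, had 1288, 1279 and 1093 TPM in fBM-MSCs and 206, 190 and 186 TPM in A-MSCs. Itga5, the fibronectin receptor subunit, had 97.9, 73.8 and 42.2 TPM against 399, 440 and 430 TPM.

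Some markers of macrophages and osteoclasts were higher in fBM-MSCs while others of the same lists were at 0. Of 15 macrophage markers, 5 were tested, 3 higher in fBM-MSCs and 1 lower, beside 20.6% and 20.3% of all tested genes. The lower count is at the background, and 2 or 3 were higher when 1 library was left out. The call of Cd68 was lost without A-MSC replicate 3 (adjusted p = 0.0715) or fBM-MSC replicate 2 (0.0774). The sum was 45.3 to 71.9 TPM in fBM-MSCs and 19.5 to 27.9 TPM in A-MSCs. Of the 15, 7 were at 0 in every fBM-MSC library, among them the defining Adgre1, Itgam and Tyrobp. Fcer1g, a signalling chain of myeloid receptors, had 4.7, 15.9 and 19.8 TPM in fBM-MSCs and 0 in A-MSCs. Of 9 osteoclast markers, 5 were tested and 3 were higher, namely Ctsk, Itgb3 and Atp6v0d2. Acp5 went the other way and was not called (-2.16 ± 1.28, SE, adjusted p = 0.198), although its groups did not overlap. Atp6v0d2 had 20.9, 23 and 15 TPM in fBM-MSCs and 0 in A-MSCs, at least 1030-fold higher, while Dcstamp was at 0 and Calcr and Tnfrsf11a were at 0.0867 TPM or less on average. The summed level of the 9 was 220 to 333 TPM in fBM-MSCs and 65.4 to 75.5 TPM in A-MSCs. Of 12 lymphocyte and granulocyte markers none passed the filter, and of 12 erythroid and megakaryocyte markers 1 was tested and 0 called. Of 9 tested endothelial markers, 4 were lower in fBM-MSCs and 0 higher, 44.4% called against 40.9% of all tested genes and 3 to 5 lower when 1 library was left out, and the sum was 5.15 to 10.4 TPM in fBM-MSCs and 24.3 to 81.3 TPM in A-MSCs. Emcn had 49.5, 5.51 and 2.32 TPM in A-MSCs and 0 in fBM-MSCs, and Flt1, a VEGF receptor, had 9.72, 13.6 and 12.8 TPM against 0, 0.1 and 0 TPM, with Erg and Sox17 at 0 in all 6 libraries. Of 11 pericyte and glia markers, 4 were tested and 4 were higher in fBM-MSCs, including S100b and Cspg4, where 20.6% of all tested genes were. The 11 summed to 1.75 to 2.63 TPM in A-MSCs and 32.8 to 62.5 TPM in fBM-MSCs, with Sox10 at 0 in all 6 libraries. At so low a level in A-MSCs, the filter on low counts largely fixed the direction of the tested members, so their count supports nothing further. It was 3 without fBM-MSC replicate 2 or any 1 of the A-MSC libraries. The member lost was Rgs5, whose adjusted p was also 0.0615 with DESeq2, 0.0676 with the replicate block and 0.0879 and 0.118 with limma. Of 4 tested sex-linked genes, 1 was higher and 0 lower, 25% called against 40.9% of all tested genes. The part of other cells in the differences was not tested.

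Promoter states were set beside expression, and for genes higher in fBM-MSCs the direction depended on the threshold for an open region. Among 810 genes at least 3-fold higher in fBM-MSCs with a start on chromosomes 1 to 19, 15.1% (12.7 to 17.7) had a promoter open in fBM-MSCs only and 3.21% (2.11 to 4.67) in A-MSCs only. Among 636 genes at least 3-fold lower, 0.472% (0.0974 to 1.37) were open in fBM-MSCs only and 15.6% (12.8 to 18.6) in A-MSCs only. The 7089 genes not called had 0.931% and 4.33%. Over all 2491 genes called higher in fBM-MSCs the shares were 5.74% in fBM-MSCs only and 2.97% in A-MSCs only, and at a −log10 q of at least 20 the order turned, with 5.78% and 7.71%. Most promoters were open in both tissues, 59.8% of the first group, 65.1% of the second and 85.9% of the genes not called.

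The vBM-MSC and P-MSC libraries gave a comparison of marrow with non-marrow cells that shares no library with the first, though it shares the mice. There 4842 of the 12509 genes were called (38.7%), 2627 higher in vBM-MSCs (21% of those tested) and 2215 lower (17.7%). Of the 2663 genes called in both comparisons, 2216 had the same direction (83.2%), which is 43.3% of the genes called in fBM-MSCs against A-MSCs and 45.8% of those called in vBM-MSCs against P-MSCs, and 447 had opposite directions. The difference between the 2 comparisons was itself called for 3132 genes (25%). Of 16 bone matrix genes, 12 were higher in vBM-MSCs, with a median of 4.39, and for 2 the difference was called. Mitosis genes were lower in 28 of 28, with a median of -3.14. Smooth muscle genes went different ways: 5 were higher and 5 lower in vBM-MSCs, beside 21% and 17.7% of all tested genes. For 16 of the 18 the 2 comparisons differed by test. Of 20 mesothelial genes, 4 were higher and 5 lower in vBM-MSCs, both near the shares of all tested genes, and for 9 the difference was called. Hox genes also differed, with 12 of 26 higher and 1 lower in vBM-MSCs against P-MSCs and 14 with a called difference. Acta2 had means of 5014 TPM in vBM-MSCs and 3147 TPM in P-MSCs, so that fBM-MSCs, at 778 TPM, were the lowest of the 4 tissues and A-MSCs, at 8314 TPM, the highest.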

How the data were processed

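RNA-seq libraries were made by Smart-seq2, which keeps no strand and no molecular identifiers. The authors ran RSEM with STAR against mm10 and deposited expected counts, which are not normalized, and TPM, scaled by RSEM for effective length to a fixed sum. FPKM, also deposited, was not used. ATAC-seq reads passed through Trim Galore, Bowtie and Picard duplicate removal by the authors, were shifted for the transposase, and gave 1 MACS2 list per tissue. The deposited peak lists give each summit's fold enrichment over the genome-wide level as a ratio and its −log10 q. Software versions are not given in the sources used here. PCR reads are not independent molecules, so intervals and floors cover counting error only.

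Expected counts were rounded and tested by the quasi-likelihood method of edgeR 4.0.16 (R 4.3.3) with TMM scaling, two-sided, in 1 model of 4 tissues and 11 libraries. Genes entered if 2 or more libraries reached a CPM of 1. Replicate 3 of vBM-MSCs was not analysed here. Sharing of mice between tissues was not modelled. A group without counts was set to a floor of 3 counts. In data simulated for this comparison over 12509 genes, 52% of 200 genes changed 2-fold and 80.5% of 200 changed 4-fold were recovered, with 4.59% and 3.01% of calls false, and 0 calls were made with no change. The simulation drew independent counts from the fitted spread and changed only 200 genes, while 40.9% of tested genes were called in the data. It therefore checks the code under its own model and does not give the recovery or false share of the real comparison. Open regions were compared by overlap in Python 3.11.15, with RefSeq starts and sequence of GRCm38.p6. In each direction the 12 largest fold changes with at least 10 TPM and without overlap were named, with up to 3 called members of each list per direction, its most abundant member and a fixed set of lineage genes. Itgb1, Cd44, Ly6a, Vcam1, Trp53, Cdkn1a, Phospho1, Enpp1, Mgp, Sparc and the genes given as at 0 or as not called fall outside that rule and were chosen after their values were seen. The genes, the 35 lists and the motifs were chosen with earlier results of these data known. A few genes are not reported here. Alternatives were DESeq2 1.42.0, limma 3.58.1 on log2 TPM, other size factors, no filter, the 6 libraries alone, the replicate number as a block, and leaving out each library.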

Additional observations from a re-analysis of the deposited data

Results flagged for a closer look

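For the genes listed here, all named by rule, fBM-MSCs against A-MSCs and vBM-MSCs against P-MSCs were both called, in opposite directions, and the difference of the 2 log2 fold changes (first minus second) was itself called by edgeR. Except for Cd68, Zfp521, Tbx5 and Isl1, the femoral against adipose value was the lower. The difference was -4.26 for Acta2, where the first comparison gave -3.49 and the second 0.77. It was -10.09 for Aldh1a3, -11.75 for Slc1a6, -9.13 for Inhbb, -9.12 for Col14a1, -8.56 for Cd36, -8.09 for Sfrp1, -6.53 for Il6 and -6.49 for Tnfaip6. It was -5.25 for Nkd1, -5.10 for Fabp4, -4.84 for Igf1, -4.35 for Adamts5, -4.14 for Efemp1, -3.82 for Fst, -3.78 for Aldh1a1 and -3.14 for Pappa. Smaller differences were -2.19 for Gbp2, -1.87 for Col4a5 and -0.97 for Msmo1. The opposite order was found for Cd68 at 3.22 and Zfp521 at 2.22, and for the limb and heart factors Tbx5 and Isl1, at 19.74 and 16.93. The last 2 values come from genes with no counts in 1 or more groups, so they depend on the prior count of the fit and are no measure of size. For 8 of these genes the femoral against adipose call was lost when 1 library was left out, with adjusted p values up to 0.0539 for Adamts5, 0.0774 for Cd68, 0.0912 for Col14a1, 0.156 for Col4a5, 0.131 for Fabp4, 0.0854 for Igf1, 0.127 for Msmo1 and 0.0729 for Pappa. Tbx5 had 1.31, 0.21 and 0.64 TPM in fBM-MSCs, 0 in A-MSCs and vBM-MSCs and a mean of 2.63 TPM in P-MSCs.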

How the results depend on the processing

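The count of genes called between fBM-MSCs and A-MSCs stayed within 1.5 times its value under each alternative, and apart from fits that leave out 1 library it ran from 4577 with the 6 libraries alone to 5432 with DESeq2. The exceptions among counts came from limma on log2(TPM + 1), where at least 3-fold differences numbered 806 in place of 1501, and 429 of them were higher in fBM-MSCs in place of 834, a scale that understates the folds of low genes. Leaving out 1 library gave 4260 to 5448 called genes (2113 to 2751 of them higher), 1309 to 1538 genes at least 3-fold apart (707 to 861 higher) and 1844 to 2237 genes shared with the vBM-MSC and P-MSC pair. No pairing by replicate number was seen, and which libraries share a mouse stays unknown: deviations of same-numbered fBM-MSC and A-MSC libraries correlated at 0.0274, 0.00868 and -0.0181. With the replicate block, 4989 genes were called, 1441 at least 3-fold apart and 2135 shared. Of 163 called named genes, 132 stayed called under every alternative in which they were tested, of 13 in all, 31 lost the call under at least 1, and 0 turned. Without a threshold beyond the deposited lists, 67.4% of fBM-MSC and 66.8% of A-MSC regions overlapped, and at a −log10 q of 20, 74.5% and 60.4%. Of genes higher in fBM-MSCs, 5.74% had a promoter open in fBM-MSCs only and 2.97% in A-MSCs only, which became 3.49% and 1.12% with all regions, and 5.78% and 7.71% at 20, where the order of the 2 shares turned. Of genes lower in fBM-MSCs, 0.574% and 5.86% became 0.287% and 3.81% with all regions, and 1.8% and 13% at 20. At 20 there were 27368 A-MSC and 22270 fBM-MSC regions.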
